A study of Mus musculus with 7 samples.

Results

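Serpins are a large family of proteins that share a common structure. Most members trap a serine or cysteine protease by offering a reactive loop as bait and then distorting the bound enzyme, while some members, such as *Serpinh1*, *Serpinf1* and *Serpina7*, serve as chaperones, secreted factors or hormone carriers and inhibit no protease. Clade A members are mostly secreted plasma proteins made by the liver, clade B members lack a classical secretion signal and act inside cells, many of them in skin and blood cells, and the genes lie in tandem runs. The thymic medulla is where such tissue-restricted genes are shown to developing T cells: medullary thymic epithelial cells (mTECs) that express *Aire*, a transcriptional regulator, transcribe many genes otherwise found in single organs. All genes whose symbol starts with Serpin were taken from the 7 libraries of the series, which gave 52 of 20839 genes, 19 of them in clade A and 22 in clade B.

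The 7 droplet libraries held EpCAM+ CD45- cells sorted from mouse thymus on the C57BL/6 background, 3 pooled thymi to a library and 1 library to a condition. The Aire trace library came from mice aged 6 weeks that carried Aire-CreERT2 and R26-CAG-Stopfl-zsGreen, in which the *Aire* promoter drives a tamoxifen-dependent recombinase, and that received 2 mg of tamoxifen on alternate days over 10 days. The other 6 libraries came from mice without these alleles that received 3 injections of 100 ug of antibody within 1 week. The antibody was an isotype control in the libraries of week 2 (mice aged 4 weeks) and week 10 (12 weeks), and anti-RANKL, which blocks the ligand that *Aire*-expressing mTECs depend on, in those of week 2 (4 weeks), week 4 (6 weeks), week 6 (8 weeks) and week 10 (12 weeks). Because each condition was a single library, conditions could be described but not tested. Classes of cells within a library were compared over the 7 libraries instead, although these libraries were of different genotypes and treatments and not replicates of 1 condition.

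In all, 8453 cells and 89007173 unique molecular identifiers (UMIs, each standing for 1 captured transcript) were recovered, with library medians of 4299.5 to 16809 UMIs per cell, lowest in the week 6 and week 4 anti-RANKL libraries. Cells with no UMI of *Ptprc*, which encodes CD45, numbered 8220, and all values refer to them unless stated. Levels are given as UMIs per 1000000 UMIs of the class and library (CPM). In these cells 8 epithelial markers summed to 6005 CPM and 8 T cell markers to 28.0, and 140 of the cells held 2 or more T cell markers. T cell markers summed to 2795 CPM in 69 barcodes picked for *Ptprc* and T cell genes. That gap was fixed by the choice of barcodes and so does not test the label of thymic epithelium. Those 69 barcodes also carried 5704 CPM of the epithelial markers and are given for comparison only, since no doublet caller was run. Classes were set on the deposited natural log scale: *Aire* at 0 (5159 cells), up to 1.5 (1292 cells) and above 1.5 (1769 cells), *Ccl21a*, a chemokine gene of a large mTEC population, above 4 (3451 cells), and *Krt10*, a keratin gene of cornifying epithelium, above 1.5 (219 cells). The libraries held 22 to 549 cells with *Aire* above 1.5, 160 to 944 with *Ccl21a* above 4 and 20 to 57 with *Krt10* above 1.5. Some cells were in 2 of these high classes, namely 41 with *Aire* and *Ccl21a*, 11 with *Aire* and *Krt10* and 59 with *Ccl21a* and *Krt10*. These were few of the *Aire*-high and *Ccl21a*-high cells but a sizeable part of the 219 *Krt10*-high cells. Between libraries, 50 cell barcodes recurred.

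Of the 52 serpins, 44 lay in 6 runs of neighbouring genes in the mouse genome (GRCm38, GENCODE vM21). The runs on which the results turn were 11 clade B genes over 749 kb of chromosome 1 (106861173 to 107610484), 18 clade A genes over 800 kb of chromosome 12 (103614786 to 104414329), and 8 and 3 clade B genes over 419 kb and 170 kb of chromosome 13. The chromosome 1 run reads, in order, *Serpinb5*, *Serpinb12*, *Serpinb13*, *Serpinb3a*, *Serpinb3b*, *Serpinb3c*, *Serpinb11*, *Serpinb7*, *Serpinb2*, *Serpinb10* and *Serpinb8*. *Serpinb2* and *Serpinb10* overlap on the same strand, and so do *Serpinb3b* and *Serpinb3c* and, on chromosome 12, *Serpina3k* and *Serpina3m*, so that their UMIs could be split wrongly in counting. Near-identical copies were a smaller concern, since 21 serpins shared at least 1 window of 50 bases with another serpin in the last 1000 bases of their transcripts but only *Serpina1c* shared most of its windows (63.2%). *Serpina3g* shared 14.0% and *Serpina3i* 16.6% of theirs, so values of both carry some uncertainty.

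The promoters of 4 genes of the chromosome 1 run are shown because these neighbours differed between the classes of cells. Each line gives the 250 bases before the RefSeq transcription start, 5′ to 3′ on the gene's strand (GRCm38.p6, all on the plus strand), with matches to TATAAA (the letters of the TATA box) and TGANTCA (those of the AP-1 site) in capitals, wherever they lie.
*Serpinb2*, chr1:107511173-107511422: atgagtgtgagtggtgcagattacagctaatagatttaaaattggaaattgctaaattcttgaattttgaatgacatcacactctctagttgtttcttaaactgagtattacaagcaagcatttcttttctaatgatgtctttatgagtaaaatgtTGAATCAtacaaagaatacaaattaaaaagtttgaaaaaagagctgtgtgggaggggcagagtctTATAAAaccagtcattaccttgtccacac
*Serpinb5*, chr1:106860925-106861174: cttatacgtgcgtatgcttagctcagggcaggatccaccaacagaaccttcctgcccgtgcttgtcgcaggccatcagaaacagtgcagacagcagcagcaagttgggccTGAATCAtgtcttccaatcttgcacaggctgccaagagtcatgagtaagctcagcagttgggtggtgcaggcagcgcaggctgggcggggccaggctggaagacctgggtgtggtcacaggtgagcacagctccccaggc
*Serpinb10*, chr1:107528753-107529002: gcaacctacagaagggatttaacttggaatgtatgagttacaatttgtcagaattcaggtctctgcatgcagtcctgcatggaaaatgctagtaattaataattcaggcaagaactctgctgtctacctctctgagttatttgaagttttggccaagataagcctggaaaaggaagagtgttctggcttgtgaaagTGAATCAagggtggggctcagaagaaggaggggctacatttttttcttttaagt
*Serpinb12*, chr1:106934199-106934448: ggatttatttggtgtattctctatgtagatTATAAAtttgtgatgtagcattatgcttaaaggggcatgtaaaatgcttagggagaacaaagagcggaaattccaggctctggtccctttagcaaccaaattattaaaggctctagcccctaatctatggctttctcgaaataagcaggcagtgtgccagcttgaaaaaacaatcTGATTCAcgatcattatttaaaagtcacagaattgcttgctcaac

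The motifs were searched on both strands of the promoters of 44 serpins and of all 32851 RefSeq promoters in the table used. TGANTCA was found in 7 of the 10 promoters of the chromosome 1 run, in 2 of the 34 promoters of other serpins and in 6.75% of all promoters. In *Serpinb2* it ended 88 bases before the start, in *Serpinb10* 48, in *Serpinb12* 39 and in *Serpinb5* 134, and *Serpinb7*, *Serpinb8* and *Serpinb11* held it too. TATAAA was found in 6 of the 10 and in 6 of the 34, against 12.4% of all promoters. In *Serpinb2* it ended 24 bases before the start, but in *Serpinb12* 215, and in *Serpinb7* it lay on the opposite strand. The 6 of the run thus count matches to the letters and not TATA boxes by position. They include the related genes *Serpinb3a*, *Serpinb3b* and *Serpinb3c*. The NF-kB motif was found in 0 serpins (0.356% of all promoters), GCCNNNGGC (AP-2) in 3 (13.7%) and CANNTG (the E-box) in 24 (66.2%). A match describes these letters in this window and is not evidence of binding, and the RefSeq starts of *Serpinb3b*, *Serpinb7* and *Serpinb11* lay 117246, 23033 and 1115 bases from those of GENCODE.

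The first question was which serpins the sorted cells expressed. The family summed to 1390 ± 294 CPM (SD, n = 7 libraries), and the 8 highest genes held 75.3% of it. *Serpinb1a*, an inhibitor of neutrophil elastase-type proteases, was the highest at 282.5 ± 139 CPM (SD, n = 7) and alone made up 20.3%. It was followed by *Serpinb6a*, an intracellular inhibitor of trypsin-like proteases (214 ± 41.4), *Serpinh1*, the collagen chaperone of the endoplasmic reticulum (165 ± 75.5), and *Serpina3g*, an inhibitor of cysteine cathepsins (129 ± 31.6). *Serpinb6b* (94.8 ± 43.4), *Serpinb9*, the inhibitor of granzyme B (64.5 ± 25.9), *Serpinb2*, also known as plasminogen activator inhibitor type 2 (58.2 ± 41.8), and *Serpina3i* (39.3 ± 12.7) came next. Since each UMI is 1 tagged transcript end, levels of different genes were set side by side without a correction for length.

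Neighbours in this order mostly did not differ beyond their spread over libraries. *Serpinb1a* ranged from 113 to 481 CPM with a median of 288, *Serpinb6a* from 171 to 267 with a median of 191.5, and *Serpinh1* from 90.3 to 289 with a median of 157, so that all 3 ranges overlapped. *Serpinb1a* was highest in the Aire trace library and lowest at week 6 after anti-RANKL, while *Serpinh1* was highest at week 4 after anti-RANKL. *Serpinb2* had the widest relative range of the 8, from 4.55 at week 6 after anti-RANKL to 129 in the week 2 control, with a median of 57.5. *Serpinb6a* had the narrowest.

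The rest of the family was sparse. A mean of at least 100 CPM was reached by 4 serpins, of at least 5 by 28 and of at least 1 by 34. The other 18 included most of the liver-type genes of chromosome 12 (*Serpina1b*, *Serpina1c*, *Serpina1e*, *Serpina3k*) as well as *Serpind1*, and 17 serpins had fewer than 100 UMIs in all. *Serpinb9d*, *Serpini2* and *Serpinb3b* had fewer than 10 and are named here only. In the libraries of weeks 4 and 6 after anti-RANKL only genes seen in at least 2 deposited cells were listed, and a gene that a library did not list was taken as 0 there, which touches *Serpina11* (week 4), *Serpinb9b* (weeks 4 and 6) and *Serpina3j* and *Serpina7* (week 6).

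**Figure D1:**
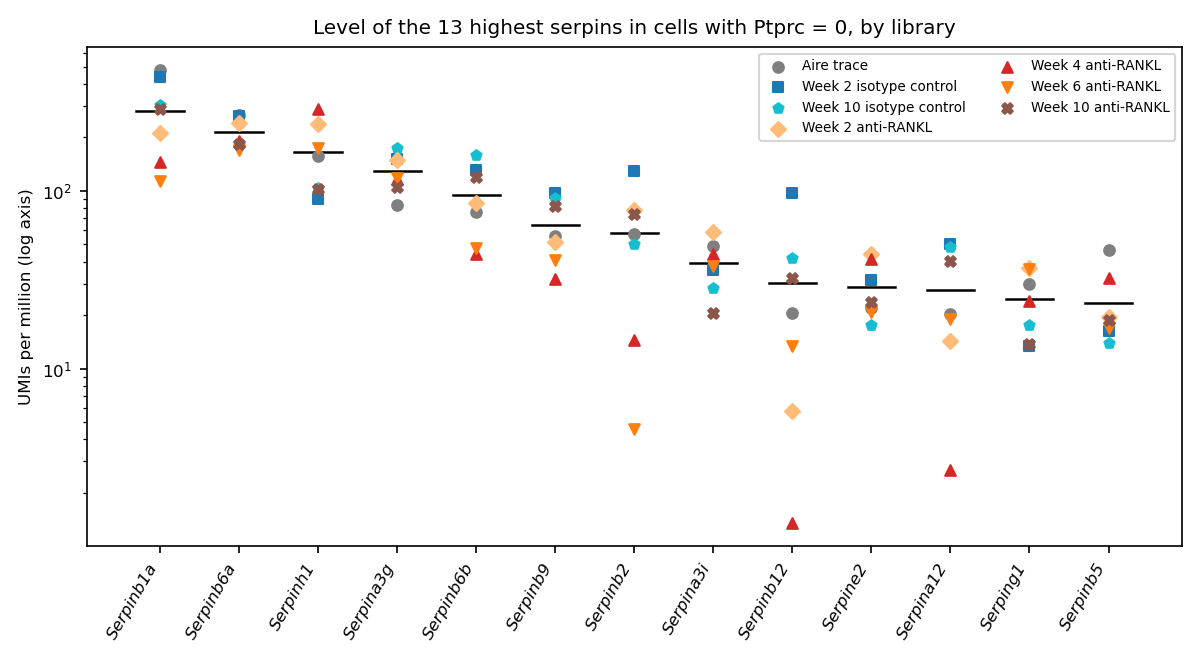
CPM (log axis) of the 13 serpins with the highest means in cells with *Ptprc* at 0; each symbol is 1 of the 7 libraries and the bar is their mean. *Serpinb6a* lies between 171 and 267 in every library, while *Serpinb12* and *Serpinb2* fall to 1.35 and 4.55 in libraries after anti-RANKL.

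How many serpins a single cell expressed depended on depth, so cells were thinned to 2000 UMIs, which kept 8048 cells. At that depth 15.5% of cells held no serpin UMI, 27.6% held 1 serpin gene, 27.0% held 2, and the highest number was 9. The mean per cell was 1.91 ± 0.203 (SD, n = 7) with *Aire* at 0, 1.86 ± 0.249 with *Aire* up to 1.5 and 1.97 ± 0.237 with *Aire* above 1.5, so that the classes differed by less than the spread between libraries. It was 2.03 ± 0.288 with *Ccl21a* above 4 and 2.03 ± 0.438 with *Krt10* above 1.5. Without thinning the means were 4.26 with *Aire* at 0 and 5.93 with *Aire* above 1.5, where 2425 and 3150 genes of any kind were detected per cell.

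The first comparison asked which serpins differed between cells with *Aire* above 1.5 and cells with *Aire* at 0, with limma on log2(CPM + 10) of sums per library and class and a term for the library. Of 29 serpins that passed the filter (a mean of at least 5 CPM), 11 were higher at a Benjamini-Hochberg adjusted p under 0.05, against 19.7% of the 11126 genes tested, and 10 were lower, against 35.3% of all genes. The median difference of the 29 was -0.19 log2 units and that of all genes -0.13. The 23 serpins that did not pass the filter were not tested.

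The higher serpins came from several runs and included genes best known from other organs. *Serpina12*, the adipokine vaspin, lay at 37.1, 76.5 and 102 CPM (lowest, median and highest of 7 libraries) with *Aire* above 1.5 and at 1.44, 6.34 and 8.68 with *Aire* at 0. The libraries of the classes did not overlap, and the log2 difference was 2.3 ± 0.16 (SE, limma, adjusted p = 2.89e-06). *Serpinb12*, an epithelial inhibitor of trypsin-like proteases, lay at 10.6, 53.7 and 122 against 0.866, 4.05 and 45.7 CPM, a log2 difference of 1.85 ± 0.23 (adjusted p = 9.79e-05). Its ranges overlapped because the week 2 control reached 45.7 with *Aire* at 0, but within each of the 7 libraries the *Aire*-high cells held more.

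*Serpinb10*, known as bomapin and expressed in blood cells, is the only 1 of the 52 that GENCODE vM21 lists as a polymorphic pseudogene and not as protein coding. It lay at 21.2, 53.8 and 82.4 against 3.04, 6.87 and 18.0 CPM without overlap (log2 difference 1.61 ± 0.16, adjusted p = 2.57e-05). *Serpinc1*, which encodes the liver-made coagulation inhibitor antithrombin, lay at 5.29, 30.5 and 48.1 against 1.71, 3.335 and 9.54 (1.27 ± 0.19). Both were higher in 7 of 7 libraries. *Serpinb9b*, a relative of the granzyme B inhibitor, was higher in the 5 libraries that listed it, with 12.1 ± 14.0 against 0.363 ± 0.648 CPM (SD, n = 7, 0.88 ± 0.25 log2 units). *Serpinb9b* fell under the filter and was not tested without week 2 after anti-RANKL, without cells of more than 1 class or without cells holding mesenchymal markers, as did *Serpina11* without the week 10 control, and both passed in the other 6 fits that left out a library. The remaining 6 were *Serpina11* (0.87), *Serpinb6b* (0.78), *Serpina9* (0.69), *Serpina3f* (0.50), *Serpinb9* (0.47) and *Serpina3g* (0.26 log2 units). Of the 11, *Serpinc1*, *Serpina9*, *Serpina3f*, *Serpina11* and *Serpinb9b* had means under 5 CPM with *Aire* at 0 and passed the filter, a mean of 5 CPM over both sides, only through the *Aire*-high side, which favoured a higher call, so that their calls are no support for the count. The call of *Serpina3f* was lost at 2000 UMIs (adjusted p = 0.11 by limma), without cells holding mesenchymal markers (0.21 log2 units, adjusted p = 0.516) and without the anti-RANKL libraries (adjusted p = 0.0649). The calls of *Serpinb9* and *Serpina3g* were not stable, each being lost on leaving out any of 5 libraries singly (adjusted p = 0.0498 and 0.0474 with all 7), and *Serpina3g* turned to -0.28 when the *Aire* 0 side was held to *Ccl21a* above 4. With cells of *Ccl21a* above 4 taken out of both sides *Serpinb9* did not pass (0.10, adjusted p = 0.677 by limma), and *Serpina3i* and *Serpini1* were also called. In that fit 12 serpins were higher and 13 lower, beside 1905 and 4019 of 11361 genes.

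The lower serpins were led by *Serpinh1*, *Serpinb5*, *Serpinf1* and *Serping1*. *Serpinh1* lay at 37.2, 48.9 and 114 CPM with *Aire* above 1.5 against 173, 206.5 and 300 with *Aire* at 0 (fell by 1.81 log2 units, SE 0.15, adjusted p = 9.93e-06). *Serpinf1*, the secreted pigment epithelium-derived factor, lay at 1.43, 4.17 and 12.8 against 18.1, 28.3 and 50.6, and *Serping1*, the inhibitor of complement C1 proteases, at 0, 9.22 and 12.8 against 22.2, 38.6 and 49.6. None of these 3 overlapped between the classes. With the *Aire* 0 side held to *Ccl21a* above 4, however, *Serpinf1* (-0.14, adjusted p = 0.449 by limma) and *Serpine2* (-0.32, adjusted p = 0.161) did not pass, and *Serpina7* and *Serpinb11* fell under the filter and were not tested. *Serpinb5*, the epithelial serpin maspin, had 7.87 ± 10.4 against 37.4 ± 12.6 CPM (SD, n = 7, -1.50 ± 0.14 log2 units), and the Aire trace library stood apart with 31.0 in its *Aire*-high cells where the other 6 libraries reached 6.49 at most. *Serpinb11* (-0.92), *Serpina7* (-0.87), *Serpinb1a* (-0.79), *Serpinb6a* (-0.63), *Serpine2* (-0.62) and *Serpina3n* (-0.52) completed the 10. Thinning to 2000 UMIs ended the calls of *Serpinb11*, *Serpina7*, *Serpinb1a* and *Serpina3n*, and single libraries decided those of *Serpina7* (adjusted p = 0.0633 by limma without the week 10 control) and *Serpinb11* (0.0521 without week 2 after anti-RANKL). Without a library term *Serpina7* and *Serpinb1a* did not pass. With the mean of the deposited values *Serpine2* (adjusted p = 0.0788 by limma), *Serpina7* and *Serpinb11* did not pass, nor did *Serpina3n* (0.219) and *Serpinb11* (0.116) without the anti-RANKL libraries. *Serpina3n*, *Serpina7* and *Serpinb11* had means under 5 CPM with *Aire* above 1.5 and passed the filter only through the other side, which favoured a lower call.

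Mesenchymal markers moved with this contrast. The 7 marker genes summed to 536 CPM with *Aire* at 0 (261 to 716 over libraries) and to 83.4 with *Aire* above 1.5 (41.0 to 266), of which *Dcn* made up 94.3% and 63.6%, and without *Dcn* they summed to 30.4 and 30.3. With cells that held these markers left out, *Serpinh1*, *Serpinb5* and *Serping1* were still lower, whereas *Serpinf1* and *Serpina3n* no longer passed. In that fit 7 serpins were higher in place of 11, and over all genes 1467 of 11118 were higher in place of 2190 of 11126. T cell markers lay at 24.0 CPM with *Aire* at 0 and 32.1 with *Aire* above 1.5, and leaving out cells that held them ended the call of *Serpinb9* and no other. Myeloid markers (5 genes) summed to 186 and 644 CPM, of which *Lyz2* made up 88.0% and 96.2%, and to 22.4 and 24.2 without *Lyz2*. Their part in the result was not tested.

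Shares of cells at 2000 UMIs were set beside these levels. The cells of 7 unlike libraries were pooled for them, so that the intervals cover counting of cells only and not the spread between libraries. *Serpina12* was detected in 13.4% of cells with *Aire* above 1.5 (exact binomial 95% interval 11.9 to 15.1%) and 0.641% of cells with *Aire* at 0 (0.439 to 0.904%), against 4.62% of the 65 T cell barcodes deep enough (0.962 to 12.9%). *Serpinb10* was detected in 10.3% and 1.24%, with 0 of the 65 T cell barcodes (0 to 5.52%). *Serpinb12* was detected in 7.88% and 0.761%, with 1.54% of T cell barcodes. *Serpinh1* showed the reverse, with 9.13% of cells with *Aire* above 1.5 and 34.4% of those with *Aire* at 0, against 12.3% of T cell barcodes (5.47 to 22.8%). Since the T cell barcodes also held epithelial RNA, their shares are no level free of epithelial expression. Median depths before thinning were 12910 UMIs in the *Aire*-high cells and 9175 in the T cell barcodes.

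Cells with low *Aire* lay between the others for the leading genes. *Serpina12* lay at 9.40, 29.9 and 34.9 CPM with *Aire* up to 1.5, above all *Aire* 0 values and below all *Aire*-high values. Against cells with *Aire* up to 1.5, cells with *Aire* above 1.5 had 6 of 28 tested serpins higher (background 9.97% of 10978 genes) and 5 lower (15.3%), with a median difference of -0.03 against -0.07 over all genes. The 6 were *Serpinb10* (1.24 ± 0.10 log2 units, adjusted p = 6.1e-05), *Serpinb12* (1.08 ± 0.25), *Serpina12* (1.05 ± 0.13), *Serpinb6b* (0.74 ± 0.11), *Serpina11* (0.71 ± 0.17) and *Serpina9* (0.61 ± 0.16). Without a library term *Serpinb12* (adjusted p = 0.136 by limma) and *Serpinb6b* (0.117) did not pass. The call of *Serpina9* was lost at 2000 UMIs (adjusted p = 0.237), with a pseudocount of 1, with no filter and without the week 10 control (0.0528 to 0.0612), and that of *Serpina11*, which had 2.25 CPM with low *Aire* and passed the filter through the other side, without the anti-RANKL libraries (0.0551). *Serpinb10* had 14.0 ± 9.84 CPM with low *Aire* and 46.7 ± 23.4 with high *Aire* (SD, n = 7). *Serpinc1* had 20.5 ± 14.0 and 27.3 ± 15.1, a difference of 0.31 log2 units with a 95% interval of 0.08 to 0.55 that missed the threshold (adjusted p = 0.0537). It passed with the mean of the deposited values, with median ratio scaling, without week 6 after anti-RANKL and without the anti-RANKL libraries.

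The 5 lower serpins were *Serpinh1* (-1.05 ± 0.15 log2 units, adjusted p = 0.000999), *Serpinb1a* (-0.63), *Serpinf1* (-0.54), *Serpine2* (-0.50) and *Serping1* (-0.43). *Serpinh1* had 134 ± 49.4 CPM with low *Aire* and 59.4 ± 26.5 with high *Aire* (SD, n = 7), and was lower in 7 of 7 libraries. Once cells with mesenchymal markers were left out, the differences were 0.01 for *Serpinf1*, -0.14 for *Serping1*, -0.41 for *Serpine2* and -0.76 for *Serpinb1a*, none of which passed (adjusted p = 0.0692 by limma for *Serpinb1a*), and *Serpinh1* still did. On leaving out each library the calls of *Serpine2* and *Serpinf1* remained in 4 of 7 fits (*Serpine2* lost without either week 2 library or week 6 after anti-RANKL, *Serpinf1* without the *Aire* trace library, the week 2 control or week 6) and that of *Serpinb1a* in 5 of 7 (lost without the *Aire* trace library or the week 10 control), and without a library term only *Serpinh1* passed.

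**Figure D2:**
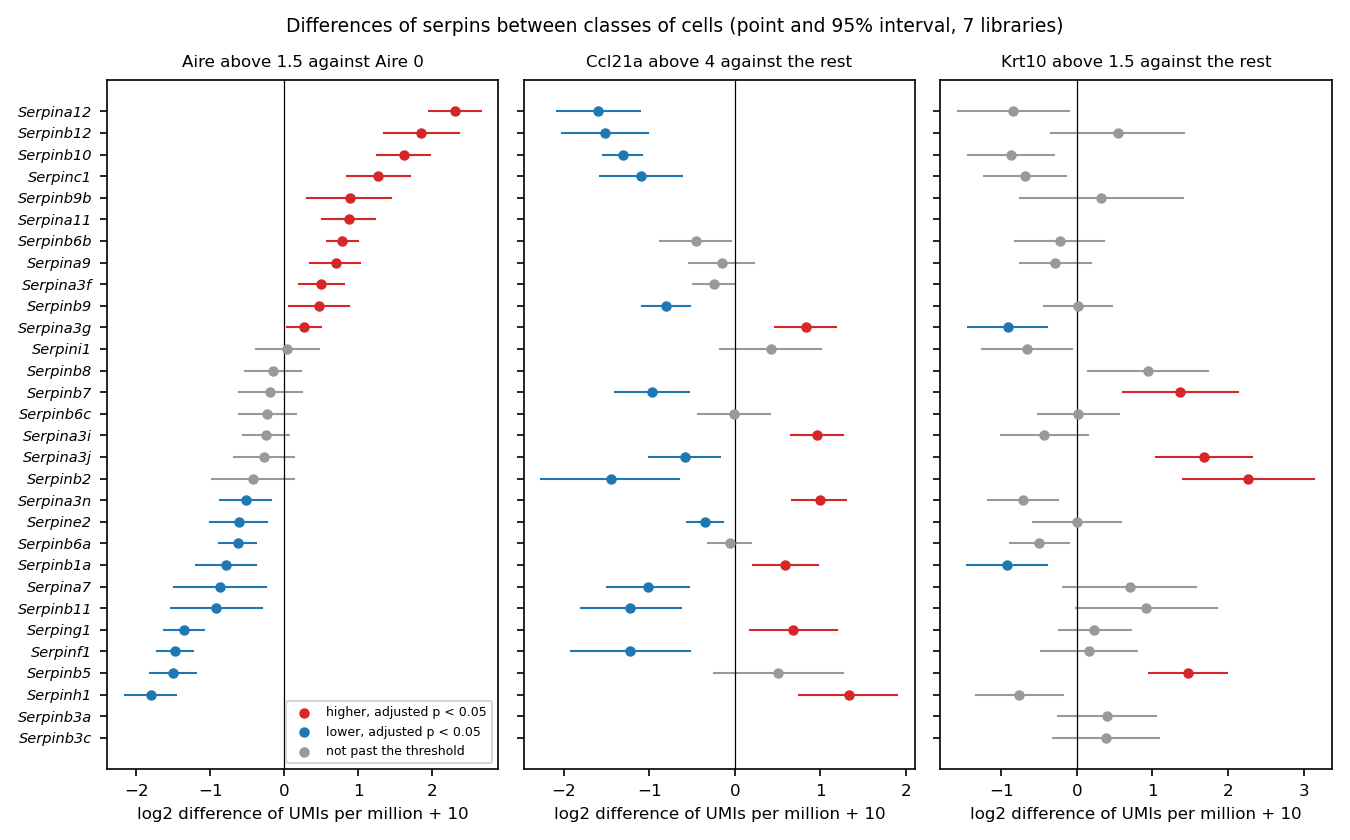
Log2 differences (points) with 95% intervals (lines) over 7 libraries for serpins tested in 3 contrasts; red and blue mark higher and lower at an adjusted p under 0.05, grey the rest, and a missing point a serpin that did not pass the filter there. *Serpina12*, *Serpinb12*, *Serpinb10* and *Serpinc1* are higher with *Aire* and lower with *Ccl21a*, while *Serpinb2* leads the *Krt10* panel at 2.27.

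The second comparison set cells with *Ccl21a* above 4 against the rest. Of 26 serpins tested, 7 were higher (background 18.8% of 10913 genes) and 12 were lower (24.2%), and the median difference was -0.30 log2 units against -0.00 over all genes. *Serpinh1* led, at 215, 291 and 317 CPM (lowest, median, highest) against 62.6, 67.2 and 285 in the rest (1.33 ± 0.25, adjusted p = 0.00313). The classes overlapped because of week 4 after anti-RANKL, where the rest reached 285 CPM and the *Ccl21a*-high cells 291.

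A trio of neighbours from the *Serpina3* end of the chromosome 12 run were higher with *Ccl21a*. *Serpina3i* lay at 36.95, 64.4 and 86.05 CPM against 17.6, 24.0 and 34.8 without overlap (0.96 ± 0.14, adjusted p = 0.000646). *Serpina3n*, an inhibitor of antichymotrypsin type, lay at 5.12, 19.0 and 31.2 against 2.04, 3.15 and 6.49 (0.99 ± 0.14, adjusted p = 0.000627), and *Serpina3g* at 99.8, 155 and 254 against 48.5, 92.3 and 166 (0.83 ± 0.16). Each of the 3 was higher in 7 of 7 libraries. Other genes of the same run did the reverse, *Serpina12* with -1.60 and *Serpina3j* with -0.58 log2 units. The call of *Serpina3j* remained in 3 of the 7 fits that left out a library and was lost without a library term (adjusted p = 0.0736 by limma). The calls of *Serping1* (0.68) and *Serpinb1a* (0.59) ended when single libraries were left out and when both sides were held to *Aire* at 0.

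Of the 12 lower serpins, 5 were chromosome 1 neighbours, namely *Serpinb12* (-1.52), *Serpinb2* (-1.45), *Serpinb10* (-1.31), *Serpinb11* (-1.22) and *Serpinb7* (-0.97 log2 units). *Serpinb2* lay at 2.54, 7.96 and 68.5 CPM with *Ccl21a* above 4 against 6.03, 76.1 and 169.5 in the rest, and although these ranges overlapped it was lower in 7 of 7 libraries (SE 0.36, adjusted p = 0.0103), although it did not pass without a library term (adjusted p = 0.0591 by limma). *Serpina12* lay at 1.84, 3.63 and 6.36 against 4.34, 46.5 and 56.4, and *Serpinf1* at 2.65, 6.82 and 11.8 against 10.2, 18.6 and 113.5 (-1.22 log2 units, adjusted p = 0.0121). *Serpinc1* (-1.10), *Serpina7*, the thyroxine-binding globulin (-1.01), *Serpinb9* (-0.80), *Serpina3j* and *Serpine2*, the protease nexin (-0.35), were the others. Of the 12, *Serpina12*, *Serpinc1*, *Serpina7*, *Serpinb7*, *Serpinb11* and *Serpina3j* had means under 5 CPM with *Ccl21a* above 4 and passed the filter only through the rest, and *Serpina3n*, among the higher, did so through the *Ccl21a*-high side, which favoured their calls. The call of *Serpine2* was also lost without a library term, with higher class limits and without the anti-RANKL libraries.

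The rest of the cells held nearly all of the *Aire*-high cells. With both sides held to *Aire* at 0, *Serpinb10* (adjusted p = 0.0751) and *Serpinb12* (adjusted p = 0.154) no longer passed by limma and *Serpinc1* fell under the filter and was not tested, whereas *Serpina12* and *Serpinb2* were still lower, and *Serpinh1*, *Serpina3n*, *Serpina3i* and *Serpina3g* were still higher. Mesenchymal markers summed to 286 CPM with *Ccl21a* above 4 and 335 in the rest, and with cells that held them left out *Serpinf1* (-0.17), *Serpine2* (-0.25) and *Serpinb1a* (0.56, adjusted p = 0.0529 by limma) no longer passed.

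The third comparison set cells with *Krt10* above 1.5 against the rest. Of 29 serpins tested, 4 were higher (background 3.76% of 11232 genes) and 2 were lower (4.59%), with a median difference of 0.02 log2 units against -0.05 over all genes. The number lower was not stable and did not stand for the same genes, being 10 without cells of more than 1 class, 7 without cells holding mesenchymal markers, 5 with higher class limits, among which neither of the 2 was found, and 0 by limma without a library term. Over all genes the number lower was 765, 877, 1104 and 180 in these settings, in place of 516. The higher ones were *Serpinb2*, *Serpinb5* and *Serpinb7* of the chromosome 1 run and *Serpina3j* of chromosome 12.

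*Serpinb2* was the highest serpin of these cells. With *Krt10* above 1.5 it lay at 0, 452 and 1161 CPM, and in the rest at 4.64, 46.5 and 106. The log2 difference was 2.27 ± 0.40 (SE, limma, adjusted p = 0.00519), in 6 of 7 libraries. The lowest values were 38.9 at week 4 and 0 at week 6 after anti-RANKL, against 394 or more in the other 5 libraries, so that the classes overlapped only through these 2 libraries. Behind the *Krt10*-high values stood 200 UMIs in the Aire trace library, 550 and 56 in the week 2 and week 10 controls, and 86, 9, 0 and 158 at weeks 2, 4, 6 and 10 after anti-RANKL. At 2000 UMIs 23.7% of *Krt10*-high cells held *Serpinb2* (exact binomial 95% interval 18.1 to 30.0%), against 4.80% of the rest (4.34 to 5.29%) and 3.08% of T cell barcodes (0.375 to 10.7%), intervals that again pool unlike libraries and cover counting of cells only. The call depended on 2 settings, since the adjusted p (limma) was 0.0674 with a pseudocount of 1 and 0.167 without a term for the library.

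*Serpinb5* lay at 35.2, 81.2 and 118 CPM with *Krt10* above 1.5 against 13.6, 16.1 and 46.0 in the rest, and was higher in 7 of 7 libraries (1.47 ± 0.24 log2 units, adjusted p = 0.00444), although the call was lost at 2000 UMIs (1.09, adjusted p = 0.0636) and without the anti-RANKL libraries (adjusted p = 0.0507). *Serpina3j* had 57.5 ± 45.4 against 6.61 ± 4.82 CPM (SD, n = 7) and was higher in the 6 libraries that listed it (1.68 ± 0.29, adjusted p = 0.00494), although it did not pass without a library term (adjusted p = 0.0555 by limma). *Serpinb7*, known as megsin, had 68.9 ± 62.2 against 10.4 ± 6.24 and was higher in 5 of 7 libraries (1.37 ± 0.35, adjusted p = 0.0299), with 0 in the *Krt10*-high cells of weeks 4 and 6 after anti-RANKL. Leaving out any of the other 5 libraries singly ended the call of *Serpinb7*. *Serpinb11* had 76.7 ± 126 against 12.9 ± 7.94 and did not pass (0.92 log2 units, 95% interval -0.01 to 1.85, adjusted p = 0.22).

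*Serpinb1a* (-0.92 log2 units, adjusted p = 0.0332) and *Serpina3g* (-0.91, adjusted p = 0.035) were lower with *Krt10*, and each call remained in only 2 of the 7 fits that left out a library. Without the anti-RANKL libraries neither passed, *Serpinb1a* being at -0.09 (adjusted p = 0.871 by limma). *Serpinb1a* lay at 30.3, 94.4 and 553 CPM in the *Krt10*-high cells and reached 553 in the week 2 control. The *Krt10* class was small and in part thinly supported, since 19 of 57 of its cells at week 4 and 16 of 25 at week 6 passed with a single *Krt10* UMI, and none did in the other libraries. Mesenchymal markers summed to 358 CPM in the class, with *Pdgfra* at 0, and to 317 in the rest.

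**Figure D3:**
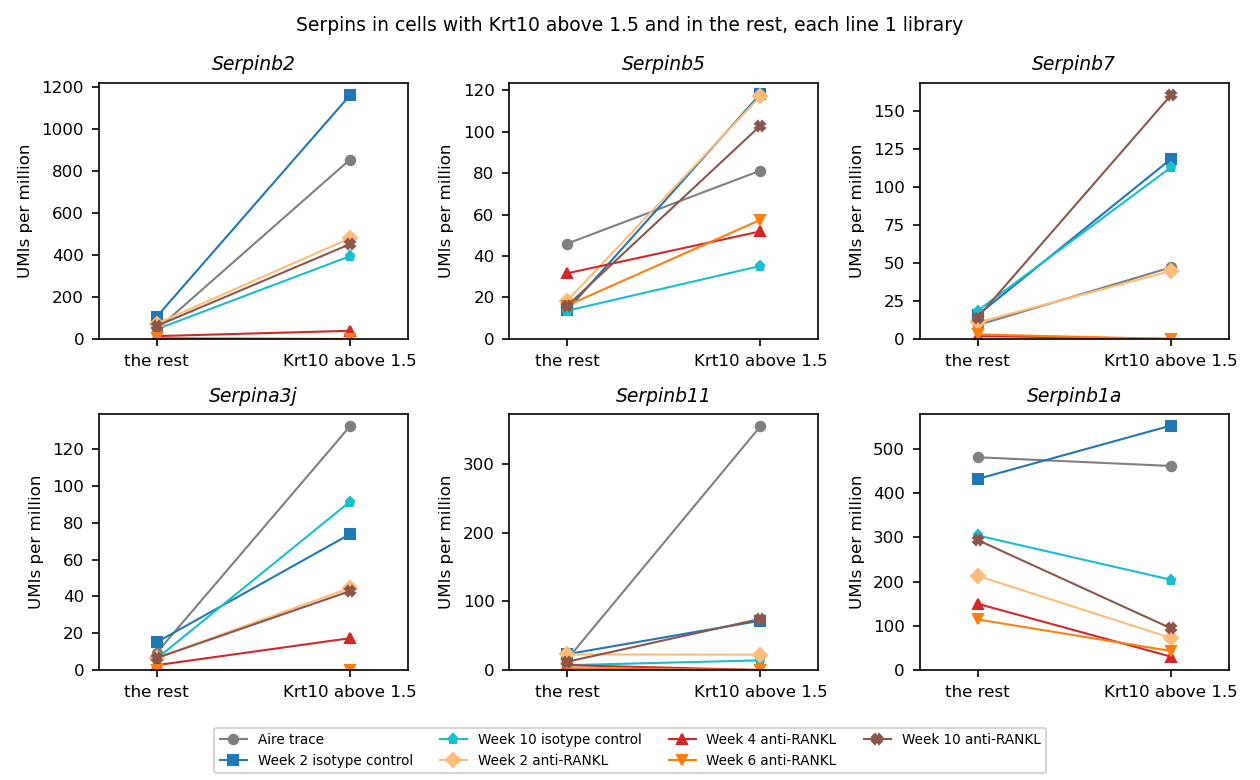
CPM (linear axes that start at 0) of 6 serpins in cells with *Krt10* above 1.5 and in the rest, 1 line per library. *Serpinb2* reaches 1161 in the week 2 control and stays at 38.9 and 0 at weeks 4 and 6 after anti-RANKL, while *Serpinb5* climbs in all 7 libraries.

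Proteases that serpins are known to act on and inhibitors outside the family were followed with 2 lists. Of 31 proteases, 29 were listed and 11 to 13 were tested in a contrast. With *Aire* above 1.5 against *Aire* at 0, *Ctss* (cathepsin S, 1.65 log2 units) and *Gzmb* (granzyme B, 1.13) were higher (19.7% of all genes) and 4 of the 11 proteases tested were lower (35.3% of all genes), among them *Ctsl* (cathepsin L, -3.21) and the complement proteases *C1s1* (-2.0) and *C1ra* (-1.70). *Gzmb* had 19.7 ± 19.9 CPM against 0.622 (SD, n = 7), was higher in 4 of 7 libraries and passed the filter only through the *Aire*-high side, as *C1ra* did through the other. Against *Aire* up to 1.5 the counts were 2 higher and 3 lower of 13, beside 9.97% and 15.3% of all genes. With *Ccl21a* above 4, 3 of 11 were higher (18.8% of all genes), namely *C1s1* (2.09), *Ctsl* (2.04) and *C1ra* (1.27), and 5 were lower (24.2%), with *Klk1* (-1.41), *Ctss* (-1.10) and *Tmprss2* (-0.85) in front, of which *Tmprss2* (2.125 against 12.8 CPM) passed the filter only through the rest. With *Krt10* above 1.5, *Prss8* (0.81) was higher (3.76% of all genes) and *Ctss* (-1.36) lower (4.59%), of 12 tested. The median differences of the tested proteases were -0.18, -0.02, -0.25 and -0.10 log2 units in the 4 contrasts, beside -0.13, -0.07, -0.00 and -0.05 over all genes.

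Of 20 other inhibitors, 15 were tested in each contrast. With *Aire* above 1.5 against *Aire* at 0, 10 were lower (35.3% of all genes), led by *Spink5* (-1.91), *Wfdc18* (-1.69) and *Wfdc2* (-1.62 log2 units), and against *Aire* up to 1.5, 7 were lower (15.3%). With *Ccl21a* above 4, 5 were higher (18.8%), among them *Wfdc18* (1.22) and *Spint1* (0.80), and 5 were lower (24.2%), among them *Spink1* (-2.44), *Cst6* (-2.41) and *Slpi* (-2.30). With *Krt10* above 1.5, 4 were higher (3.76%), led by *Spink5*, the inhibitor of epidermal kallikreins (2.60), and *Cst6*, a cystatin of cornified epithelium (1.97). The medians were -0.99, -0.39, 0.29 and 0.09 log2 units, beside -0.13, -0.07, -0.00 and -0.05 over all genes.

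Whether neighbouring serpins were found in the same cells was described for pairs whose starts lay within 500 kb and of which each gene was detected in at least 20 cells at 2000 UMIs. The number of cells holding both genes was set against the number expected from each gene's share within the same library and *Aire* class. For the 71 neighbouring pairs the median ratio of observed to expected cells was 1.81, with 61 pairs above 1 and 1792 cells observed where 1135 were expected. For the 457 pairs of serpins that were not neighbours the median was 1.02, with 242 above 1. Limited to pairs with at least 5 expected cells, the medians were 1.58 over 26 pairs and 1.04 over 237. Pairs share genes and cells and so are not independent, and the ratios are a description with no test.

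The neighbouring pairs with the most cells were on chromosomes 13 and 12. *Serpinb1a* and *Serpinb6b* were found together in 341 cells where 266 were expected, *Serpinb1a* and *Serpinb9* in 320 where 218 were expected, and *Serpinb6b* and *Serpinb9* in 238 where 140.5 were expected. *Serpina3g* and *Serpina3i* shared 138 cells against 106 expected, and *Serpina12* and *Serpina3g* shared 82 against 68.8. These 5 ratios ran from 1.19 to 1.69.

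The following pairs, on chromosome 1, were chosen after their values were seen and rest on few cells. *Serpinb2* and *Serpinb7*, 111768 bases apart, shared 62 cells where 10.0 were expected, *Serpinb2* and *Serpinb11* 40 where 7.13 were expected, and *Serpinb7* and *Serpinb11* 24 where 2.36 were expected. The overlapping genes *Serpinb2* and *Serpinb10* shared 44 cells against 21.4, a lower ratio (2.06) than that of *Serpinb2* and *Serpinb7* (6.19). *Serpinb8* and *Serpinb11* shared 12 against 1.505 and *Serpinb12* and *Serpinb13* 10 against 1.765. On chromosome 12 *Serpina3g* and *Serpina3j* shared 13 cells against 19.7 expected. A high ratio was also seen between chromosomes, since *Serpinb2* and *Serpina7* on the X chromosome shared 31 cells against 5.05.

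**Figure D4:**
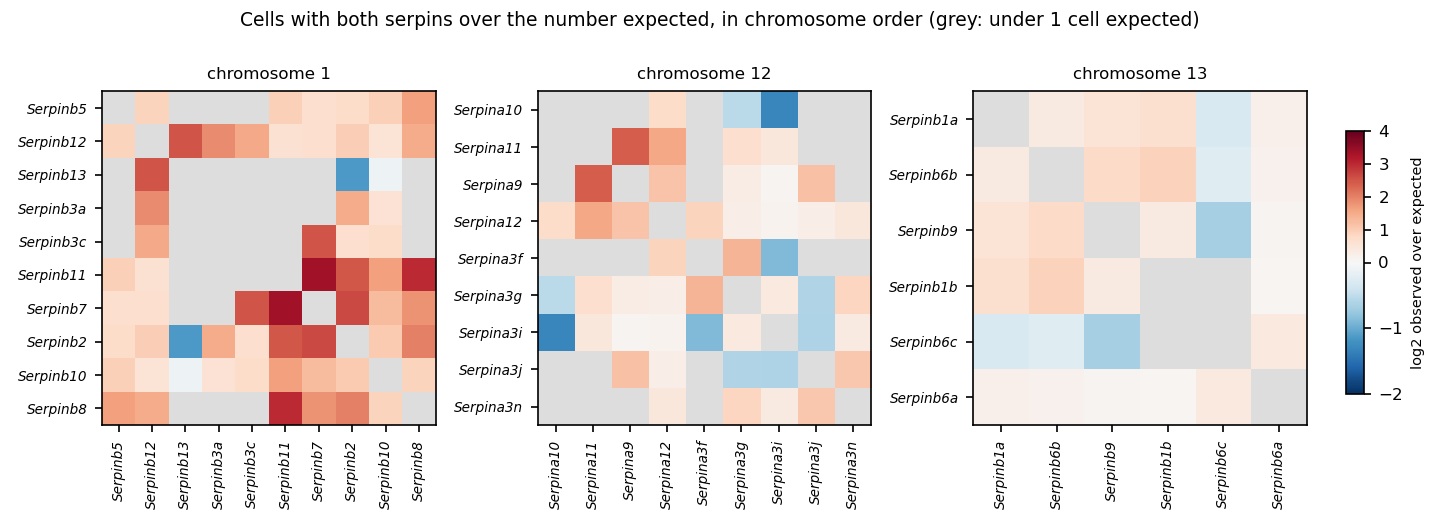
Log2 ratio of observed to expected cells holding both genes (colour scale) for pairs of serpins in chromosome order on chromosomes 1, 12 and 13, grey where under 1 cell was expected. On chromosome 1 *Serpinb7* with *Serpinb11* (10.2) and *Serpinb8* with *Serpinb11* (7.97) have the highest ratios shown, while *Serpina3g* and *Serpina3j* (0.659) lie below 1 on chromosome 12.

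The last question was how serpin levels ran over the weeks after anti-RANKL. With 1 library per week there was no test, and a serpin was counted when it lay more than 2-fold outside both isotype controls. Intervals are exact Poisson 95% intervals and cover counting error only. At week 2, 3 of 28 serpins with a mean of at least 5 CPM lay above (background 5.89% of 11046 genes) and 5 below (8.06%). At week 4, 2 lay above (8.15%) and 13 below (13.2%), and at week 6, 2 lay above (6.14%) and 14 below (10.3%). At week 10, 0 lay above (0.244%) and 1 below (0.208%), which was *Serpina3n* with 2.53 CPM (1.68 to 3.65) against 8.06 and 5.26 in the controls.

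The 5 serpins below both controls at week 2 were *Serpina11*, *Serpina12*, *Serpinb10*, *Serpinb12* and *Serpinc1*, and all 5 lay below at weeks 4 and 6 too. They were also among the 11 higher with *Aire*. Both lists come from the same cells, so that this overlap is no separate support, and its share over all genes was not counted. *Serpina11* had a mean of 5.175 CPM over the libraries and passed the filter only through those where it was high, which favoured a call below. So did *Serpinb8* (5.255), which lay below at week 6. *Serpinb12* had 96.8 CPM (92.7 to 101) in the week 2 control and 42.0 (38.5 to 45.7) in the week 10 control. After anti-RANKL it had 5.74 (4.58 to 7.11) at week 2, 1.345 (0.645 to 2.47) from 10 UMIs at week 4, 13.4 (9.94 to 17.7) at week 6 and 32.4 (29.1 to 35.9) at week 10. The lowest point was thus week 4, and at week 10 the value was within 2-fold of the week 10 control. *Serpina12* followed the same course, with 50.3 and 48.1 in the controls and 14.2, 2.69, 19.0 and 40.1 after anti-RANKL.

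*Serpinh1* ran the other way. It had 90.3 CPM (86.4 to 94.4) and 104 (98.2 to 109) in the controls, 238 (230 to 246) at week 2, 289 (277 to 302) at week 4, 174 (161 to 188) at week 6 and 102 at week 10. *Serpinf1* had 13.3 and 10.3 in the controls and 20.0, 42.8, 40.45 and 9.65 after anti-RANKL, so that its highest values were at weeks 4 and 6. *Serping1* lay above both controls by more than 2-fold at weeks 2 (37.0) and 6 (36.4), where the controls had 13.4 and 17.5, and *Serpina3n* at week 2 (19.5). With cells thinned to 2000 UMIs *Serping1* was no longer more than 2-fold above both controls at week 2, and the numbers below them were 6, 15, 13 and 1 at weeks 2, 4, 6 and 10, in place of 5, 13, 14 and 1.

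*Serpinb1a* and *Serpinb2* reached their lowest values later, at week 6. *Serpinb1a* had 435 (426 to 444) and 303 (294 to 313) CPM in the controls and 211, 146 (138 to 155), 113 (102.5 to 124) and 288 after anti-RANKL. *Serpinb2* had 129 (124 to 134) and 50.3 in the controls and 77.7, 14.4, 4.55 (2.65 to 7.29) and 74.2 after anti-RANKL. The controls themselves thus differed by more than 2-fold for *Serpinb2*, as for *Serpinb12*.

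**Figure D5:**
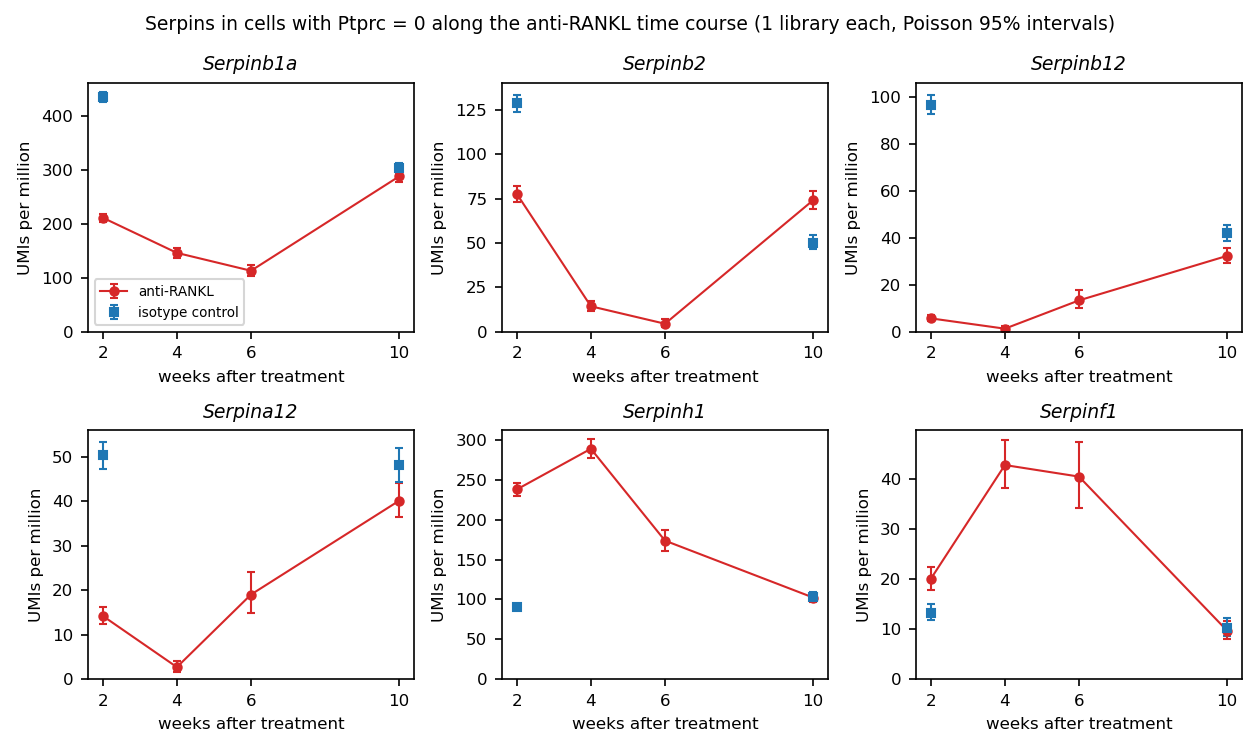
CPM of 6 serpins in cells with *Ptprc* at 0 against weeks after treatment, red for the 4 anti-RANKL libraries and blue for the 2 isotype controls, bars for Poisson 95% intervals. *Serpinb12* and *Serpina12* are lowest at week 4, *Serpinb1a* and *Serpinb2* at week 6, and *Serpinh1* is highest at week 4.

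The make-up of the libraries moved with these courses. Cells with *Aire* above 1.5 made up 40.4% and 44.0% of the controls and 5.24%, 1.52%, 15.2% and 38.65% at weeks 2, 4, 6 and 10 after anti-RANKL, and cells with *Ccl21a* above 4 made up 14.2% and 16.7% against 57.8%, 65.1%, 46.45% and 20.99%. Within a class the courses were not alike. In *Aire*-high cells *Serpina12* had 77.6 and 76.5 CPM in the controls and 102, 37.1, 42.2 and 62.9 after anti-RANKL, the value of week 4 coming from 22 cells. Of the *Aire*-high cells, 3 of 22 at week 4 and 19 of 109 at week 6 passed with a single *Aire* UMI, and none did in the other libraries. In *Ccl21a*-high cells *Serpinh1* had 279 and 317 in the controls and 294, 291, 228 and 313 after anti-RANKL, so that it stayed within 2-fold of both controls at every week.

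*Serpinb1a*, by contrast, lay more than 2-fold below both controls at weeks 2, 4 and 6 in *Ccl21a*-high cells and in cells with *Aire* at 0. In *Ccl21a*-high cells it had 853 and 593 CPM in the controls and 206, 173, 152 and 354 after anti-RANKL, and in cells with *Aire* at 0 it had 657 and 559 against 203, 150, 115 and 441. In *Aire*-high cells it had 265 and 166 in the controls and 179, 68.8, 98.4 and 244, and lay below both by more than 2-fold at week 4 alone. *Serpinb2* in cells with *Aire* at 0 had 214 and 48.9 in the controls and 89.3, 12.8, 4.56 and 99.6, with its lowest value again at week 6. Depth moved with the weeks as well, the libraries of weeks 4 and 6 being the shallowest. Treatment and library cannot be told apart in these 6 libraries, and weeks 4 and 6 had no control of the same age.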

How the data were processed

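Cells from 7 libraries (EpCAM+ CD45- thymic cells) were measured by droplet sequencing. The authors aligned reads with Cell Ranger 2.2.0 to mm10, filtered cells and genes and scaled them in Seurat 2.3.4, and deposited a natural log value per gene and cell, ln(1 + UMIs per 10000). Whole UMIs were recovered from these values within 0.001. The methods give a scale of 1000, but each cell summed to 10000. Reads were counted on the authors' annotation, and positions, overlaps and promoters come from GENCODE vM21 and RefSeq (GRCm38.p6), matched by symbol.

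The members and lists were chosen with earlier results of these data known. Every serpin could be named, values were given for the 8 highest, for up to 5 per contrast and direction with the largest difference past the threshold, for those outside both controls, and for the 5 neighbouring pairs with the most cells. Cells with *Ptprc* at 0 were classed by *Aire*, *Ccl21a* and *Krt10* level, with 587, 164 and 287 cells within 0.25 of these limits. UMIs were summed per library and class (at least 10 cells a side), expressed per 1000000 UMIs (CPM), filtered at a mean of 5 and tested as log2(value + 10) with limma 3.58.1 (lmFit, eBayes with a trend, R 4.3.3) with a library term, Benjamini-Hochberg adjusted over all genes tested. Fold changes of low genes are understated on this scale. The libraries had 3857876 to 22197691 UMIs in all. Poisson and binomial intervals used scipy 1.17.1 under Python 3.11.15. The code was tested on simulated data. The values of 1 serpin, which is counted in the totals, are not reported here. Alternatives changed the pseudocount, filter, scaling, thinning, class limits, library term and the libraries used.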

Additional observations from a re-analysis of the deposited data

Results flagged for a closer look

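*Serpinf1*, which encodes pigment epithelium-derived factor, differed by 0.16 log2 units between cells with *Krt10* above 1.5 and the rest over the 7 libraries (limma, adjusted p = 0.797). It was flagged because the libraries split by treatment. In the *Krt10*-high cells both isotype controls held 0 CPM, below their other cells, while the anti-RANKL libraries held 33.5, 69.2, 43.1 and 28.6 at weeks 2, 4, 6 and 10, each above its other cells. The 0 values came from only 30 cells of the week 2 control and 20 of the week 10 control. Without cells holding mesenchymal markers *Serpinf1* fell under the filter and was not tested. The Aire trace library held 42.7. With higher class limits, which kept 4 libraries, the difference turned to -1.08 and passed (limma, adjusted p = 0.0254), and it was -0.39 with a pseudocount of 1. The difference between the treatments was not tested.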

How the results depend on the processing

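No paired analysis was possible because each condition was a single library with no replicate to pair, whereas classes were compared within libraries through the library term. Of 231 alternative values of main results 181 kept their call or size and 50 moved, and of 1293 values for single serpins 1143 kept their call, 148 lost it and 2 reversed, namely *Serpina3g* with *Aire* (-0.28 with the *Aire* 0 side held to *Ccl21a* above 4) and *Serpinf1* against low *Aire* (0.01 without cells holding mesenchymal markers). Fits in which a serpin fell under the filter are not among the 1293, so that calls lost in that way are left out of this tally. The cause of these shifts was not tested, except that a filter at 20 tested fewer genes. With that filter 6 serpins were higher and 6 lower with *Aire* against 0, 3 lower against low *Aire* and 6 lower with *Ccl21a*. Over all genes these were 1336 and 2182 of 5792, 1227 of 5606 and 1336 of 5771. Thinning to 2000 UMIs gave 6 lower with *Aire*, 3 lower against low *Aire* and 2 higher with *Krt10*. Over all genes these were 2280 in place of 3933, 444 in place of 1682 and 180 in place of 422. Leaving out cells with mesenchymal markers gave 7 higher with *Aire*, 1 lower against low *Aire* and 7 lower with *Krt10*. Over all genes these were 1467 in place of 2190, 611 in place of 1682 and 877 in place of 516. Against low *Aire*, the number lower was 2 without a filter, 1 without a library term and 3 with higher class limits, and 3 to 6 on leaving out each library. Over all genes these were 1316 of 20727, 847 of 10978 and 1640 of 11031, and 1149 to 2158. With *Krt10*, the number higher was 2 with a pseudocount of 1 (198 of 11232 genes) and 1 without a library term (166 of 11232). The number lower with *Krt10* was 1 with a pseudocount of 1 or 50, without a filter or without the anti-RANKL libraries, 0 by limma without a library term, 5 with higher limits or both sides at *Aire* 0 (neither *Serpinb1a* nor *Serpina3g* being called with a pseudocount of 1, without a filter, without the anti-RANKL libraries or with higher limits), 10 without cells of more than 1 class, and 0 to 2 on leaving out each library. Other counts ran, on leaving out each library, from 8 to 10 higher and 9 to 13 lower with *Aire*, 5 to 7 higher against low *Aire*, 5 to 7 higher and 11 to 15 lower with *Ccl21a*, and 3 to 4 higher with *Krt10*. Over all genes, in the same order, they ran from 1927 to 2366, 3391 to 4184, 811 to 1298, 1466 to 2387, 2124 to 2830 and 152 to 599. Serpins per cell depended on depth. At 4000 UMIs the means were 3.11, 2.975 and 3.07 for the *Aire* classes from 0 up, 3.36 for *Ccl21a*, 3.15 for *Krt10* and 3.09 for all cells, and without thinning 4.26, 5.315, 5.93, 4.88, 4.27 and 4.84. In the time course a fold of 1.5 put 5 serpins above and 8 below the controls at week 2, 4 above at week 4 and 2 below at week 10, and the filter at 20 left 3, 7, 7 and 0 below at weeks 2, 4, 6 and 10. The share of all genes was counted for the main setting of the time course alone. The median ratio of neighbouring pairs was 1.55 without thinning and 1.68 at 4000 UMIs, and 1.62 with the expected number also taken within *Ccl21a* and *Krt10* classes. Settings on mesenchymal markers, both sides at *Aire* 0, *Ccl21a* on the *Aire* 0 side, *Ccl21a*-high cells out of both sides, expected pairs within all classes, depth under 4000 UMIs and the anti-RANKL libraries were chosen after seeing the data.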

Other observations

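In the Aire trace library the reporter transcript was counted among the genes. Among its cells with *Aire* at 0 and *Ccl21a* up to 4, 126 held the reporter (median 8978 UMIs per cell) and 106 did not (median 7181). *Serpinb2* lay at 319 CPM (UMIs per 1000000, exact Poisson 95% interval 290 to 351) in the cells with the reporter and at 39.9 (27.5 to 56.1) in those without. *Serpinb11* lay at 124 (106 to 145) and 23.0 (13.8 to 35.9), and *Serpina7* at 80.0 (65.6 to 96.7) and 4.84 (1.32 to 12.4). *Serpinh1* lay at 72.6 and 164.6 and *Serpinf1* at 29.9 and 66.6, the higher value being in the cells without the reporter, while *Serpinb5* lay at 47.1 and 42.4. These are cells of a single library, so no test was made and the intervals cover counting error only.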
